A study of Homo sapiens with 24 samples.

Results

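MSH6, MSH3, PMS2, MLH3, PMS1 and EXO1 are 6 genes listed under DNA mismatch repair. They were chosen by name for the known role of that pathway in temozolomide toxicity and not by any measured value. They are 6 of the 34496 genes listed in at least 1 of the deposited tables, and all 6 averaged 10 or more normalized counts in every table and so entered every test. Mismatch repair corrects bases that were paired wrongly during DNA replication. MutS proteins such as MSH6 and MSH3 find the error, MutL proteins such as PMS2 are recruited to it and nick the new strand, and the exonuclease EXO1 removes the stretch that DNA polymerase delta then fills in. Temozolomide, the alkylating drug used against glioblastoma, methylates guanine so that it pairs with thymine. Repeated attempts of mismatch repair to mend that pair lead to strand breaks, and glioma cells that lack the pathway tolerate the drug.

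The study measured polyadenylated RNA in 4 human glioma lines, with 3 replicates in each of 8 groups and 24 libraries in all. Both U87 MG and LN229 are long-established lines from glioblastoma, and U87-R and LN229-R are their temozolomide-resistant derivatives, whose medium held 50 µM temozolomide. Each line was treated for 96 h with 50 µM STM2457, an inhibitor of METTL3, the enzyme that methylates adenosine in mRNA, or with the same volume of the solvent DMSO. Within each resistant line the DMSO and STM2457 groups therefore both carried temozolomide, and the 2 lines of a background differed in the drug in their medium as well as in their history. U87 MG and U87-R grew in EMEM with 10% serum and their libraries were made with a TruSeq stranded kit from RNA enriched on Dynabeads, while LN229 and LN229-R grew in DMEM with 5% serum and their libraries were made with a Watchmaker kit. Kit, medium and background cannot be told apart. The labels do not say that replicates were separate cultures, nor whether a resistant line was 1 clone, so the p-values may measure only technical spread.

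Normalized counts summed to 21232924 to 25349361 per library in the U87 background and to 24101385 to 28716587 in the LN229 background. Of 7 genes typical of glioma cells, 4 to 7 had a mean of at least 10 in each group, among them VIM and CD44, and the summed level of 4 immune markers was 0 to 17.9. With STM2457 in LN229, 5 of the 7 glioma genes fell and 1 rose (median log2 change -0.46), and 2 of 3 endothelial markers rose from low levels (summed level 45.1 to 67.7 with DMSO and 78.7 to 178.6 with STM2457). In LN229-R 2 of the 7 fell and 1 rose (median -0.76), and the part of these shifts in the results was not tested. Of all genes, 49.7% changed with STM2457 in LN229 and 38.6% in LN229-R. In U87 MG with STM2457 and in both U87-R groups 4 of the 7 glioma genes had a mean of at least 10. The astrocyte markers GFAP and S100B were among those with means under 10 there. In the LN229 background the labels of the tables disagree. Each DMSO library appears in 2 tables, and over 11167 to 11169 genes all 6 columns of the table that compares LN229-R with LN229 matched the same replicate of the other line in the STM2457 tables, with an SD of the log2 difference of 0.06, against 0.35 to 0.41 for the like-named library. The 6 U87 columns matched their own names, with SDs of 0.06. The LN229 results are given as labelled. If the names in the table that compares LN229-R with LN229 are wrong, the resistance difference takes the opposite sign. If the line names of the STM2457 tables are wrong instead, the 2 STM2457 effects change places.

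Promoter stretches are shown for MSH3, EXO1 and PMS2, chosen with their mRNA changes known, and promoter activity was not measured. All 6 genes matched a RefSeq promoter on GRCh38.p14, 250 bases before the start of transcription to 50 after it. The E2F motif (TTTCGCGC or TTTGGCGC, on either strand) occurred in 1.18% of 27305 promoters of that length and in 2 of the 6 genes, MSH3 and EXO1, whose mRNAs fell with STM2457 in LN229. PMS1, which also fell there, held no match. Both stretches below are 30 bases on the plus strand, and capitals mark the matches, which in MSH3 are 2 that overlap.
MSH3, chr5:80654536-80654565: gcggtcaagTTTGGCGCGAAAttgtggccg
EXO1, chr1:241848197-241848226: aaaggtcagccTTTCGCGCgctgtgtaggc
PMS2 and AIMP2, a scaffold protein of the tRNA synthetase complex, are transcribed away from each other from the same stretch of chromosome 7. The 165 bases between their RefSeq starts are shown because PMS2 rose with STM2457 in both U87 lines and AIMP2 in 3 of the 4 lines. Capitals mark, on either strand, the CCAAT box (CCAAT, in 35.7% of promoters), the cAMP response element (TGACGTCA, in 1.98%) and the GC box (GGGCGG, in 44.6%), and the strand is that of PMS2.
PMS2, chr7:6009107-6009271, minus strand: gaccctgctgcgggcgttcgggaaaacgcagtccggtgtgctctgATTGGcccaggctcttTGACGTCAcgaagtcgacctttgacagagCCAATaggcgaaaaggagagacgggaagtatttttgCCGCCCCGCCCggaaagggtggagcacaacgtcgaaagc
The cAMP response element was also found in the EXO1 promoter, the CCAAT box in those of MSH6 and PMS1, and the GC box in those of all members but MLH3. A match describes the letters and says nothing of binding.

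Levels between genes were compared per kilobase of the longest coding transcript in GENCODE 29, within a table. That length was 7476 bases for MSH6 and 2855 for PMS2. Other transcripts were not tried, and the GENCODE and RefSeq bounds of both genes differ, so the order between genes depends on the transcript taken. The level of PMS2 is also uncertain because of its pseudogene copies, described below. In U87 MG with DMSO the mean normalized counts per kilobase were 377 for MSH6, 242 for PMS2, 142 for MSH3, 139 for EXO1, 82.2 for MLH3 and 71.1 for PMS1. U87-R kept MSH6 highest at 332 and PMS1 lowest at 63.8. In LN229 with DMSO the order was PMS2 at 549, MSH6 at 347, EXO1 at 321, PMS1 at 187, MSH3 at 124 and MLH3 at 1.67. LN229-R had the same order, from PMS2 at 678 to MLH3 at 1.99. PMS2, EXO1 and PMS1 thus stood higher, relative to MSH6, in the LN229 tables than in the U87 tables, and MLH3 much lower. The backgrounds were normalized in separate tables, so these differences of level were not tested.

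**Figure D1:**
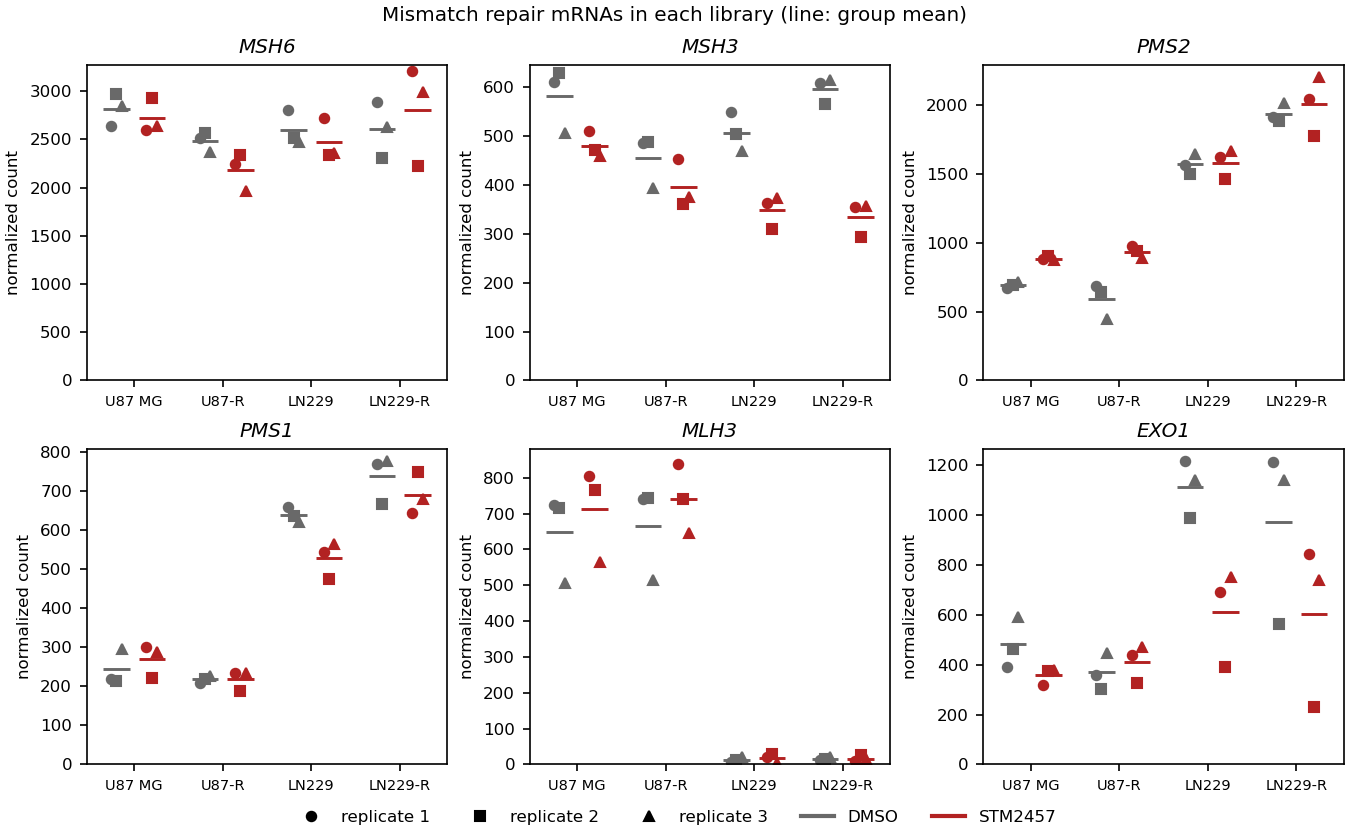
Normalized counts of the 6 mismatch repair genes in each of the 24 libraries of the STM2457 tables, by line. Grey symbols are DMSO and red symbols STM2457, symbol shapes mark the replicates and lines the group means, and each axis starts at 0. MSH3 is lower with STM2457 without overlap in LN229 and LN229-R, PMS2 is higher without overlap in U87 MG and U87-R, and MLH3 lies near 0 in both LN229 lines.

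With STM2457 MSH3 fell in both LN229 lines and PMS2 rose in both U87 lines, and in LN229 EXO1 and PMS1 also fell. The calls of PMS2 in U87 MG and PMS1 in LN229 lay at the threshold (limma adjusted p 0.049 and 0.048). Both were lost in most of the fits that left out 1 library. A gene is said to rise or fall where limma gave an adjusted p under 0.05 over all genes of the table. In U87 MG 1 of the 6 genes changed, a rise, where 13.6% of all genes changed and 7.86% rose. In U87-R 1 rose, where 14.7% changed and 8.46% rose. In LN229 3 fell, where 49.7% of all genes changed and 23.6% fell, and in LN229-R 1 fell, where 38.6% changed and 17.1% fell. The groups did not overlap for 2 of the 6 genes in U87 MG, 2 in U87-R, 3 in LN229 and 1 in LN229-R, beside 34.8%, 35.3%, 60.6% and 53.1% of all genes. These shares are not far from the background, so the account below is of single genes and not of the pathway as a unit.

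**Figure D2:**
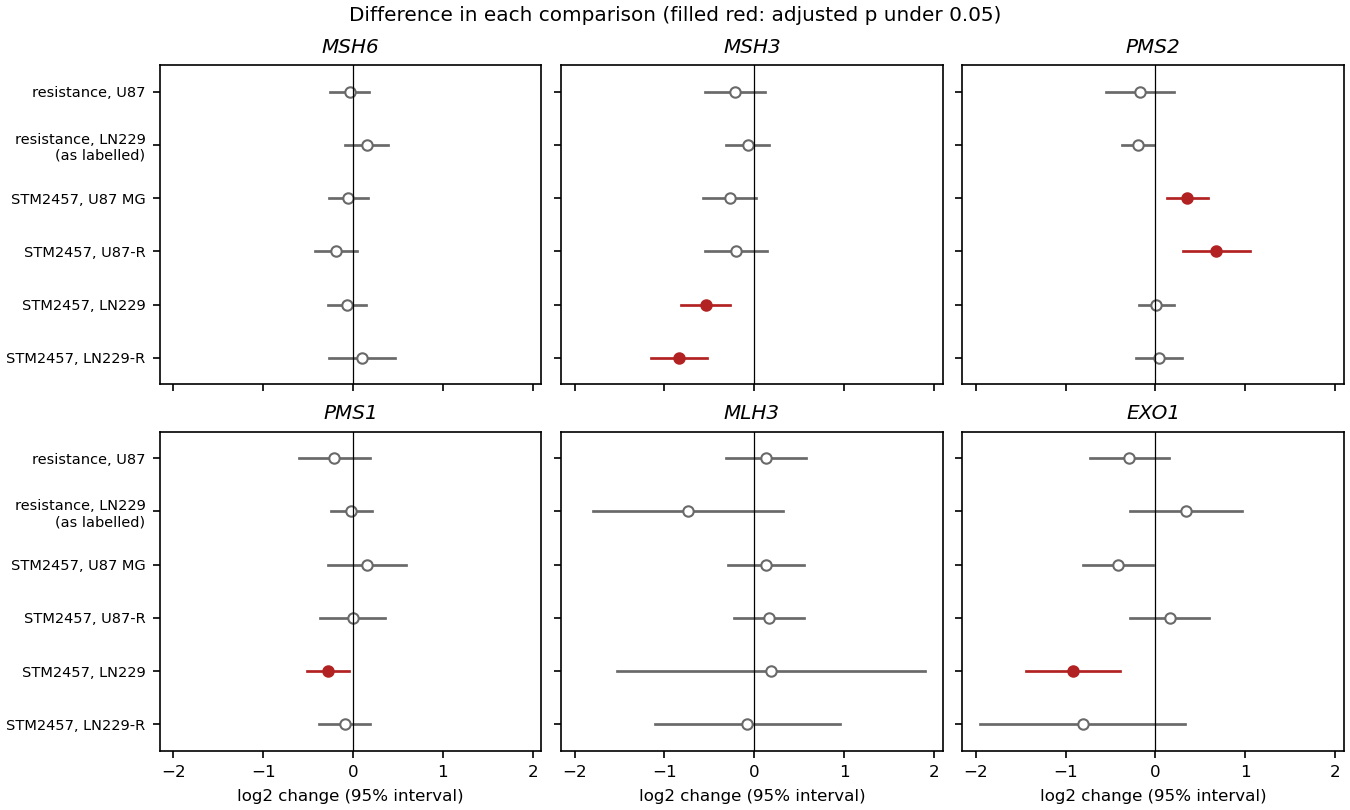
Log2 difference of each of the 6 genes in the 6 comparisons, on log2(value + 1), with its 95% interval from limma. Filled red points have an adjusted p under 0.05 over all genes: PMS2 in U87 MG and U87-R, MSH3 in LN229 and LN229-R, and PMS1 and EXO1 in LN229.

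MSH6, the MutS protein that recognises single mismatched bases, including methylated guanine opposite thymine, was the steadiest of the 6. Its means with STM2457 and DMSO were 2722 and 2818 in U87 MG, 2181 and 2481 in U87-R, 2475 and 2594 in LN229, and 2805 and 2605 in LN229-R. The log2 differences were -0.05, -0.19, -0.07 and 0.10 (adjusted p 0.25 to 0.77). In U87-R alone of the 4 lines the MSH6 groups did not overlap, with 2509, 2564 and 2368 in DMSO and 2239, 2335 and 1968 with STM2457, and this difference of -0.19 did not pass (SE 0.10, adjusted p 0.25).

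MSH3, the MutS protein that recognises larger loops, fell in the LN229 lines. In LN229 it was at 547, 503 and 468 normalized counts in replicates 1 to 3 with DMSO and at 363, 309 and 374 with STM2457. All 3 treated libraries lay below all 3 controls, and the fold was 0.69 (log2 change -0.54, SE 0.12, adjusted p 0.0064). In LN229-R MSH3 was at 608, 564 and 613 with DMSO and at 354.5, 293 and 356 with STM2457. Again the groups were apart, with a fold of 0.56 (log2 change -0.83, SE 0.14, adjusted p 0.0025). Both falls passed in each of the 6 fits that left out 1 library, with log2 changes of -0.59 to -0.46 in LN229 and -0.88 to -0.74 in LN229-R.

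In the U87 lines MSH3 was also lower on average, but the groups overlapped. U87 MG had 609.5, 627 and 506 with DMSO and 509, 469.8 and 459 with STM2457, where replicate 1 of the treated group lay just above the lowest control (log2 change -0.27, SE 0.13, adjusted p 0.2). U87-R had 486, 487 and 393 with DMSO and 452, 361 and 374.5 with STM2457 (log2 change -0.20, SE 0.15, adjusted p 0.42).

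PMS2, the MutL protein that holds the nicking activity, rose in the U87 lines. In U87 MG it was at 670.2, 692 and 713 with DMSO and at 879.5, 903 and 872 with STM2457. The groups were apart and narrow, and the fold was 1.28 (SE of the log2 change 0.10, adjusted p 0.049). In U87-R it was at 687, 639.5 and 449 with DMSO and at 973, 936 and 889.8 with STM2457, a fold of 1.60 (log2 change 0.68, SE 0.17, adjusted p 0.028). Replicate 3 of the U87-R controls was the lowest PMS2 library of the U87 background, and without it the log2 change was 0.49 and still passed. With the replicate as a block the adjusted p in U87-R was 0.0048. The call in U87 MG lay at the threshold and was lost in each of the 6 fits without 1 library (adjusted p 0.072 to 0.16, log2 change 0.33 to 0.38), and the call in U87-R was lost without DMSO replicate 2, STM2457 replicate 1 or STM2457 replicate 2 (adjusted p up to 0.096, log2 change 0.49 to 0.80 over the 6 fits).

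In the LN229 lines PMS2 stood near its control level. LN229 had 1566, 1494 and 1642 with DMSO and 1618, 1459 and 1665 with STM2457 (log2 change 0.01, 95% interval -0.18 to 0.20). LN229-R had 1913, 1885 and 2011 with DMSO and 2041, 1775 and 2199 with STM2457 (log2 change 0.05, 95% interval -0.21 to 0.30). The groups overlapped in both lines.

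PMS2 has many near-identical pseudogene copies, and reads can be shared between them, so its level is uncertain. In the U87 lines, 8 copies were tested and none passed with STM2457 in either line. The most abundant, PMS2P1, had means of 478 with DMSO and 459 with STM2457 in U87 MG (log2 change -0.05, SE 0.16) and 359 and 372 in U87-R (log2 change 0.04, SE 0.17). In LN229 both copies tested fell, PMS2P3 with a log2 change of -0.45 (adjusted p 0.012, SE 0.12) and PMS2P4 with -0.48 (adjusted p 0.015, SE 0.13), and in LN229-R PMS2P4 fell by a log2 change of -0.46 (SE 0.13, adjusted p 0.026). Whether PMS2 and its copies differed in their changes was not tested, and the copies stand under different Ensembl identifiers in the U87 and LN229 tables.

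PMS1, a MutL protein with no established role in mismatch correction, fell in LN229. It was at 659.5, 635 and 621 with DMSO and at 543, 475.5 and 563 with STM2457, with no overlap and a fold of 0.82 (log2 change -0.28, SE 0.10, adjusted p 0.048). The call was at the threshold and was lost in 5 of the 6 fits without 1 library (adjusted p 0.066 to 0.13), all but that without STM2457 replicate 3, and without replicate 2 of both groups the log2 change was -0.21 (adjusted p 0.16). The call was also lost with no filter on low values, with no variance trend and with the replicate block (adjusted p 0.059, 0.062 and 0.065). In LN229-R PMS1 was at 768, 666 and 778 with DMSO and at 643, 749 and 680.0 with STM2457 (log2 change -0.09, adjusted p 0.57), where the groups overlapped. In U87 MG and U87-R the changes were 0.15 and -0.01 (adjusted p 0.64 and 0.99).

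MLH3, a MutL protein with its main role in meiotic crossing over, passed the test in no line. In U87 MG it was at 723, 717 and 506 with DMSO and at 804.5, 767 and 565 with STM2457, and in U87-R its means were 667 and 741. In the LN229 tables MLH3 was near the filter, at 5.84, 13.0 and 20.6 in LN229 with DMSO and at 21.6, 29.01 and 3.51 with STM2457, so that a change there was hardly measurable (log2 change 0.19, SE 0.75). LN229-R likewise had means of 15.7 with DMSO and 15.8 with STM2457.

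The genes on either side of MLH3 on chromosome 14 were present in all lines. EIF2B2, a subunit of a translation initiation factor, had control means of 1144 in U87 MG and 1370 in LN229, and ACYP1, an acylphosphatase, had 300 and 150.5. The LN229 tables list 2620 to 2692 identifiers that GENCODE 29 lacks, against 734 to 761 in the U87 tables, so the gene models used for counting differed. Cell background, library kit and gene model cannot be told apart as the source of the low MLH3 values.

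EXO1, the exonuclease of the pathway, fell in LN229. It was at 1216, 988.5 and 1140 with DMSO and at 693, 391 and 754 with STM2457. The groups were apart, with replicate 2 the lowest of each, and the fold was 0.53 (log2 change -0.91, SE 0.23, adjusted p 0.011). The fall passed in each of the 6 fits without 1 library, with log2 changes of -1.09 to -0.62, and without replicate 2 of both groups, where it was -0.70 (adjusted p 0.0011).

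In LN229-R EXO1 was at 1214, 564 and 1142 with DMSO and at 844, 231 and 741 with STM2457. Within each replicate number the treated library was lower, but the control of replicate 2 lay below the treated libraries of replicates 1 and 3, and the log2 change of -0.81 did not pass (SE 0.50, adjusted p 0.23). Like-numbered LN229-R libraries deviated together, and with the replicate as a block EXO1 passed with the same change (SE 0.16, adjusted p 0.0064), which brought the count of genes that fell to 2 of 6, where 49.5% of all genes changed. It also passed without replicate 2 of both groups (log2 change -0.58, adjusted p 0.0032), where the count was likewise 2 and 49.1% of all genes changed.

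In the U87 lines EXO1 did not pass. U87 MG had 392, 464 and 589.8 with DMSO and 318, 376 and 378 with STM2457, with all treated libraries below the controls (log2 change -0.42, SE 0.17, adjusted p 0.15). U87-R had 359, 303 and 445 with DMSO and 439, 325.5 and 472 with STM2457, with overlap and the opposite sign (log2 change 0.16, SE 0.20, adjusted p 0.63).

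EXO1 moved with the genes of cycling cells. The summed level of 14 such genes (MKI67, TOP2A, CCNA2, CCNB1, CDK1, BUB1, 6 MCM genes, TYMS and RRM2) was 58400 to 68690 in LN229 with DMSO and 38340, 20910 and 39810 with STM2457. In LN229-R it was 72780, 40950 and 72370 with DMSO and 41080, 11340 and 37780 with STM2457, so replicate 2 was the lowest in both groups, as it was for EXO1. In U87 MG the sum was 51060 to 64820 with DMSO and 38930 to 46310 with STM2457, and in U87-R 43140 to 51410 and 35870 to 44760. All 14 fell in LN229, 4 in LN229-R, 7 in U87 MG and 6 in U87-R. The share of all genes that fell was 23.6% in LN229 and 17.1% in LN229-R. In either direction 13.6% changed in U87 MG and 14.7% in U87-R. In LN229-R all 14 were called with the replicate block and also without replicate 2, and none without DMSO replicate 1 or without DMSO replicate 3. These fits called 49.5%, 49.1%, 28.5% and 25.6% of all genes. In bulk RNA, fewer cycling cells and less RNA of these genes per cell cannot be told apart.

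Over the 24 libraries of the STM2457 tables, with each gene taken as the deviation of log2(value + 1) from its mean in the table, EXO1 had a Pearson r of 0.94 with the mean of the 14 genes. MSH3 had an r of 0.78, MSH6 of 0.47, PMS1 of 0.28 and PMS2 of -0.13. After the mean of each of the 8 groups was taken off, r was 0.97 for EXO1, 0.71 for MSH6 and 0.39 for MSH3. PMS2 had 0.36 and PMS1 0.11, so PMS2 was close to MSH3 by this measure. Replicate 2 of LN229-R and of LN229 with STM2457 had the lowest cycling means (-1.81 and -1.10), and MSH6 was lowest of its group there. With STM2457 in U87-R MSH6 ran the other way, at -0.05, 0.008 and -0.24 in replicates 1 to 3 against cycling means of -0.27, -0.30 and 0.013. How far the r of MSH6 rests on a few libraries was not tested. In U87-R the direction differed between treatments, since 6 of the 14 genes fell with STM2457 while the log2 change of EXO1 was 0.16. These libraries share treatments and normalization, and r is given as a description. The part of cycling in the falls of EXO1 and MSH3 was not tested.

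**Figure D3:**
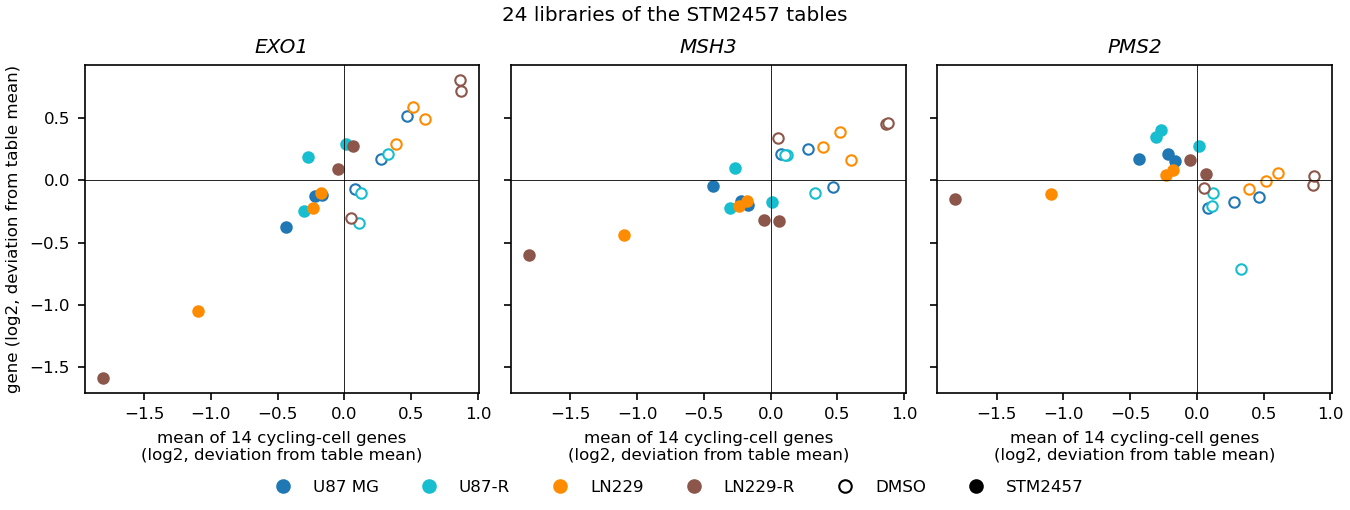
EXO1, MSH3 and PMS2 against the mean of 14 genes of cycling cells in 24 libraries, each axis in log2 units as the deviation from the mean of the table. Open points are DMSO, filled points STM2457, and colours mark the lines. Over all 24 libraries r is 0.94 for EXO1, 0.78 for MSH3 and -0.13 for PMS2, and with group means taken off it is 0.97, 0.39 and 0.36.

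The genes most like each member over the same 24 libraries, among the 10289 genes whose mean was 100 or more in all 4 tables, differed from member to member. EXO1 was nearest to GINS2 and BUB1B (r of 0.97 for both) and MKI67 (0.96), which act in replication and mitosis or mark dividing cells. MSH3 was nearest to ETV1 (0.96), an ETS transcription factor, and SRSF6 (0.94), a splicing factor. PMS2 was nearest to RND3 (0.91), SDC3 (0.88) and SETMAR (0.88), and MSH6 to PDLIM5 (0.83), ABCB10 (0.79) and WDR1 (0.75). PMS1 had the lowest r with its nearest genes, R3HDM1 (0.76), PRIMPOL (0.68) and ACTR3B (0.68). Among the members themselves the highest r was 0.64, between MSH3 and EXO1, and PMS2 was near 0 with EXO1 (0.07). MLH3 was not ranked because of its low values in LN229.

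The effects of STM2457 on these genes were not shown to differ between a resistant line and its parent. In the joint fits no member passed for U87-R against U87 MG or for LN229-R against LN229, and none had an unadjusted p under 0.05. These fits called 0% and 0.00586% of all genes. EXO1 had a difference of effects of 0.57 between U87-R and U87 MG (95% interval -0.02 to 1.16), PMS2 of 0.32 (-0.10 to 0.75), and MSH3 of -0.30 between LN229-R and LN229, all with an adjusted p of 1.

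Between backgrounds no member passed the adjusted test, and the intervals that lay to one side of 0 were those of PMS2 in both comparisons and of MSH3 in the resistant lines. For LN229 minus U87 MG the PMS2 difference was -0.34 (95% interval -0.60 to -0.09, limma adjusted p 0.063), the only one of the 6 with an unadjusted p under 0.05, where 16.5% of all genes passed, and the MSH3 difference was -0.27 (-0.65 to 0.11). For LN229-R minus U87-R the PMS2 difference was -0.63 (95% interval -1.08 to -0.19, adjusted p 0.062) and the MSH3 difference -0.63 (-1.08 to -0.18, adjusted p 0.063), where 12.9% of all genes passed. With the replicate as a block 3 of the 6 genes passed in that comparison, PMS2 (adjusted p 0.017), MSH3 (0.024) and EXO1 with a difference of -0.97 (0.011), where 24.1% of all genes did. Kit and medium differed with the background in these comparisons too. The LN229 names were taken as labelled here, and the fits were not repeated with the names exchanged.

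Resistance itself came with no called change in these genes. In DMSO, 0 of the 6 passed for U87-R against U87 MG, where 4.27% of all genes did, and 0 passed for LN229-R against LN229, where 9.25% did. At an unadjusted p under 0.05 there were 0 and 1. No member's groups were apart in the U87 lines, beside 23.3% of all genes, and 1 of 6 was in the LN229 lines, beside 30.9%.

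In the U87 lines MSH6 was at 2425, 2731 and 2604 in U87 MG and at 2546, 2614 and 2394 in U87-R, with a log2 difference of -0.04 and a 95% interval of -0.25 to 0.18. The values interleaved. MSH3 was at 571, 586 and 471 in U87 MG and at 499, 503 and 402 in U87-R (log2 difference -0.21, 95% interval -0.55 to 0.12). The other log2 differences were -0.17 for PMS2 (-0.55 to 0.21), 0.14 for MLH3 (-0.31 to 0.58), -0.21 for PMS1 (-0.60 to 0.19) and -0.29 for EXO1 (-0.73 to 0.15). The intervals still allowed a loss of MSH6 of up to 0.25 on the log2 scale and of MSH3 of up to 0.55.

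In the LN229 lines as labelled, PMS2 was the gene with an unadjusted p under 0.05. It was at 1932, 1893 and 2024 in LN229 and at 1709, 1625 and 1788 in LN229-R, with all 3 resistant libraries below the parental ones (log2 difference -0.19, SE 0.08, unadjusted limma p 0.041, adjusted p 0.18). In the STM2457 tables the order was the other way, with LN229 controls at 1494 to 1642 and LN229-R controls at 1885 to 2011, as the matching of the libraries described above gives. MSH6 was at 2941, 2334 and 2669 in LN229 and at 3171, 2835 and 2795 in LN229-R (log2 difference 0.15, 95% interval -0.09 to 0.39). EXO1 was at 1248, 577 and 1171 in LN229 and at 1312, 1062 and 1227 in LN229-R, where 1 low library, LN229 replicate 2, made most of the difference (log2 difference 0.34, 95% interval -0.28 to 0.96), and without it the value was -0.02. MSH3, PMS1 and MLH3 differed by -0.07, -0.02 and -0.74 on the log2 scale (adjusted p 0.72, 0.93 and 0.38), MLH3 at values of 5.55 to 24.4. No member's resistance difference was shown to differ between the backgrounds, with 0 called, 0 at an unadjusted p under 0.05 and 8.5% of all genes called. That joint fit took the LN229 names as labelled and was not repeated with the names exchanged. The DMSO libraries enter both the resistance and the STM2457 comparisons.

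The steps beside and after EXO1 were represented by a list of 15 genes. Of these 15 genes of excision, resynthesis and ligation, 11 fell and 1 rose with STM2457 in LN229 (median log2 change -0.77, beside -0.003 over all genes), and 6 fell and 1 rose in LN229-R (median -0.68, beside -0.02). Among all genes 49.7% changed and 23.6% fell in LN229, and 38.6% changed and 17.1% fell in LN229-R. RPA3, a subunit of the protein that coats single-stranded DNA, fell by a log2 change of -0.91 in LN229 (adjusted p 0.00044) and of -0.98 in LN229-R (adjusted p 0.0021). POLD2, a subunit of DNA polymerase delta, changed by -0.90 and -0.83 (adjusted p 0.00077 and 0.0034). HMGB1, a DNA-bending protein that stimulates excision in reconstituted repair, had means of 14340 and 6480 in LN229 with DMSO and STM2457 and changed by -1.17 and -1.18 (adjusted p 0.00077 and 0.011). In LN229-R the count called was 13 of 15 with the replicate block and 13 without replicate 2, and 4 without DMSO replicate 1 or DMSO replicate 3. Those fits called 49.5%, 49.1%, 28.5% and 25.6% of all genes. The cycling genes moved the same way in these libraries, as given above, and their part was not tested.

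POLD4, the smallest subunit of DNA polymerase delta, went the opposite way and rose in all 4 lines. Its means with DMSO and STM2457 were 825 and 1337 in U87 MG, 532 and 1052 in U87-R, 619 and 1534 in LN229, and 716 and 1549 in LN229-R. The log2 changes were 0.70, 0.99, 1.31 and 1.11 (adjusted p 0.0082, 0.0027, 4.8e-05 and 9e-04). In U87 MG the only other gene of the 15 that changed was PCNA, the sliding clamp that PMS2 and EXO1 work with, which went from a mean of 1288 to 958 (log2 change -0.43, SE 0.11, adjusted p 0.035). The count of 2 in U87 MG was 1 in each of the 6 fits without 1 library. Among all genes 13.6% changed in U87 MG and 14.7% in U87-R. In U87-R no gene of the list fell, and the medians were -0.14 in U87 MG and -0.08 in U87-R, beside -0.01 over all genes in both. None of the 15 passed for resistance in either background, with medians of -0.13 (U87) and 0.16 (LN229, as labelled). The shares of all genes that passed were 4.27% and 9.25%. With the replicate block 1 passed in each background, where 7.21% (U87) and 15.2% (LN229) of all genes did. With no filter on low values 1 passed in U87, where 2.92% of all genes did. Without U87 MG DMSO replicate 3 the count in U87 was 1 (3.3% of all genes), and without LN229 DMSO replicate 2 the count in LN229 was 2 (19%).

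Of 9 genes that signal DNA damage through the ATR kinase and the checkpoint clamp, none changed with STM2457 in U87 MG, U87-R or LN229-R, and 2 changed in LN229. The shares of all genes that changed were 13.6%, 14.7%, 38.6% and 49.7%, in that order. ATR itself rose (log2 change 0.27, SE 0.08, adjusted p 0.021) and its partner ATRIP fell (-0.35, SE 0.11, adjusted p 0.029). The count of 2 was 1 without LN229 DMSO replicate 1 or replicate 2, and 0 without LN229 DMSO replicate 3 or LN229 STM2457 replicate 1. In LN229-R 4 of the 9 passed with the replicate block and 4 without replicate 2, where 49.5% and 49.1% of all genes did. RAD17, which loads the checkpoint clamp, was lower in LN229-R than in LN229 as labelled (log2 difference -0.51, SE 0.09, adjusted p 0.01), the 1 gene of the list called for resistance. With the replicate block 3 passed there, without LN229-R DMSO replicate 1 or 3 the count was 0, and without LN229 DMSO replicate 1 or 2 it was 2. For LN229 resistance 9.25% of all genes were called in the fit reported and 15.2% with the block. Without the libraries just named the shares were 3.54%, 3.12%, 6.05% and 19%, in that order.

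Of 6 genes otherwise linked to mismatch repair, 5 could be tested. Beside the counts below, 23.6% of all genes fell with STM2457 in LN229 and 17.1% in LN229-R. MSH5, a MutS relative of meiosis, fell in LN229 from a mean of 491 to 199.5 (log2 change -1.31, SE 0.16, adjusted p 0.00032) and in LN229-R from 554 to 291 (-0.93, SE 0.18, adjusted p 0.0049). FAN1, a nuclease that binds MutL proteins, fell by log2 changes of -0.44 (adjusted p 0.006) and -0.50 (adjusted p 0.027), and MCM8, a helicase subunit, fell in LN229 by -0.62 (adjusted p 0.0015). The count of 2 in LN229-R was 1 without DMSO replicate 2 or 3 or STM2457 replicate 1 or 3, where 36.5%, 25.6%, 31.1% and 27.5% of all genes were called. None of the 5 passed in the U87 lines with STM2457, with medians of 0.12 in U87 MG and 0.07 in U87-R against -0.44 in LN229 and -0.50 in LN229-R. For LN229 minus U87 MG the difference of effects itself passed for MCM8 (-0.81, adjusted p 0.0025) and FAN1 (-0.52, adjusted p 0.026), and for LN229-R minus U87-R it passed for MSH5 (-0.94, adjusted p 0.044). These comparisons called 16.5% and 12.9% of all genes.

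PMS2 and PMS1 each lie head to head with another gene, so that their starts are close. AIMP2, 165 bases from PMS2, rose in U87-R (log2 change 0.57, adjusted p 0.04), LN229 (0.42, adjusted p 0.0051) and LN229-R (0.58, adjusted p 0.0053), and in U87 MG it had a change of 0.38 (adjusted p 0.061). In LN229 it went from 1010.0, 1015 and 1075 to 1526, 1342 and 1298, without overlap, while PMS2 on the other side of the same 165 bases overlapped with its controls. In the U87 lines the log2 changes were 0.36 and 0.68 for PMS2 and 0.38 and 0.57 for AIMP2. Whether PMS2 and AIMP2 differed in their changes was not tested in any line. ORMDL1, a regulator of sphingolipid synthesis 110 bases from PMS1, did not pass in any line, and in LN229, where PMS1 fell, its change was -0.16 (adjusted p 0.1). FBXO11, which overlaps the end of MSH6 by 3182 bases on the RefSeq annotation, did not pass either (log2 changes -0.23 to 0.06).

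**Figure D4:**
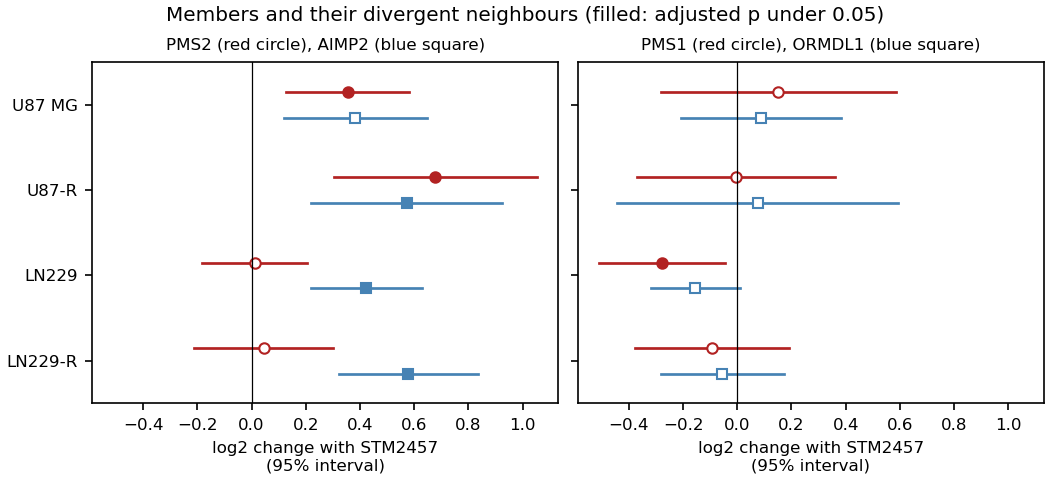
Log2 change with STM2457 and its 95% interval for PMS2 and AIMP2 and for PMS1 and ORMDL1 in the 4 lines. Red circles are the mismatch repair genes and blue squares their head-to-head neighbours, and filled symbols have a limma adjusted p under 0.05. AIMP2 is higher on average in every line and passed in all but U87 MG. PMS2 passed in U87 MG and U87-R and not in LN229 or LN229-R, though no difference between backgrounds passed. PMS2 was not tested against AIMP2.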

How the data were processed

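The authors deposited normalized counts, here treated as a signal, in 6 tables of 6 libraries each. Per the submitters' processing notes reads on GRCh38 (hg38) went through DESeq2, Salmon 1.4.0, STAR 2.7.11a and Trimmomatic 0.39, with no order or settings given. Scaling factors differ between genes, so whole counts could not be recovered, depth in reads is unknown and no count test was run. Identifiers were paired with symbols through GENCODE 29 (93.3 to 99.7% per table).

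Within each table log2(value + 1) was fitted with limma 3.58.1 in R 4.3.3, letting the variance follow the mean level, for genes averaging 10 or more. P-values were adjusted by Benjamini and Hochberg over all genes of the fit, and a gene was called with an adjusted p under 0.05. All tests were two-sided. Differences of effects came from joint fits of 12 libraries. The steps were run on simulated data with independent noise in each library, so deviations shared by like-numbered libraries were not simulated. The inserted changes were larger than those of PMS2 in U87 MG and PMS1 in LN229, so the simulation does not bear on these calls. Figures used matplotlib 3.10.9 in Python 3.11.15.

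The members, gene lists and tests were chosen with earlier results of these data known. Named genes were the members, up to 4 called genes with the lowest adjusted p per list and comparison, the nearest neighbours, PMS2 copies, and the 3 genes most like each member. Some genes that this rule selects are not reported here. Like-numbered libraries deviated together (every r above 0.1) for resistance in LN229 (0.11 to 0.20), STM2457 in U87-R (0.11 to 0.30) and STM2457 in LN229-R (0.10 to 0.32), and there the replicate block is given where it changed a call. Alternatives were pseudocounts of 0.5 and 5, no filter or a minimum mean of 50, no variance trend, scaling to equal totals or to equal upper quartiles, the replicate block, exchanged LN229 names and leaving out each library. The exchanged names were applied to the single comparisons and not to the differences of effects. Leaving out replicate 2 of both groups in LN229 and LN229-R was added after the data were seen.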

Additional observations from a re-analysis of the deposited data

How the results depend on the processing

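Of 1100 values of single members recomputed, with the exchanged names and the fits without replicate 2 of both groups not counted, 1002 kept their direction and side of the threshold, 20 no longer passed, 9 newly passed and 69 changed sign. MSH3 in LN229 and LN229-R and EXO1 in LN229 passed in all 8 other settings and all 6 fits without 1 library. The count of members called in U87 MG was 0 with no filter on low values, 0 with no variance trend and 2 with the replicate block, and 0 in all 6 fits without 1 library. In U87-R it was 0 with no variance trend and 0 to 1 without 1 library. In LN229-R it was 2 with the replicate block and 2 without replicate 2. For LN229 minus U87 MG it was 1 with equal library totals, 1 with equal upper quartiles and 1 with the replicate block, where 18.2%, 19.5% and 21.9% of all genes were called. For LN229-R minus U87-R it was 3 with the replicate block and 0 to 1 without 1 library (1 without U87-R DMSO replicate 1, where 10.2% of all genes were called). In U87 MG (r of 0.04 to 0.186) and LN229 (0.068 to 0.099) not every r of like-numbered libraries was above 0.1. LN229 lay just under that cutoff and LN229-R, with a lowest r of 0.102, just over it. The block changed calls there of EXO1 in U87 MG (adjusted p 0.045), PMS1 in LN229 (lost, 0.065) and PMS2 for LN229 minus U87 MG (0.05), and it changed no other call of a member beyond those given above. The PMS2 difference for LN229 minus U87 MG was -0.43 with equal library totals (adjusted p 0.021) and -0.49 with equal upper quartiles (0.014).

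Counts of list genes also moved. With the replicate block 11 cycling genes were called in U87 MG (7 as reported) and 2 in LN229 resistance (1 as reported). Without a variance trend 4 were called in U87 MG, 1 in U87-R (6 as reported) and 0 in LN229-R (4 as reported), and with equal upper quartiles 4 in U87 MG and 7 in LN229-R. Of the excision list in U87 MG (2 as reported), 5 were called with the block, 1 without a variance trend and 1 with equal upper quartiles. The share of all genes called in U87 MG was 25.2% with the block, 7.93% without a variance trend and 7.08% with no filter on low values, in U87-R 29.6%, 8.48% and 7.45%, in U87 resistance 7.21% with the block and 2.43% without a variance trend, and in LN229 resistance 15.2% and 5.55%.

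With equal library totals the sign changed for PMS1 in LN229 resistance (0.035), MSH6 in U87 MG (0.009), PMS1 in U87-R (0.046), PMS2 in LN229 (-0.016), and the differences of MLH3 for LN229 minus U87 MG (-0.032) and of PMS2 for resistance (0.067). With equal upper quartiles it changed for PMS1 in LN229 resistance (0.005), MSH6 in U87 MG (0.01), PMS2 in LN229 (-0.076) and LN229-R (-0.031), and the differences of MSH3 (-0.001) and MLH3 (-0.043) for U87-R minus U87 MG, MLH3 for LN229 minus U87 MG (-0.085) and PMS2 for resistance (0.002). With the LN229 names exchanged in the resistance table, the values were -0.15 for MSH6, 0.072 for MSH3, 0.19 for PMS2, 0.74 for MLH3, 0.02 for PMS1 and -0.34 for EXO1. With the names exchanged in the STM2457 tables instead, the values that changed sign were 0.095 for MSH6 and -0.077 for MLH3 in LN229 and -0.069 for MSH6 and 0.19 for MLH3 in LN229-R. Without replicate 2, MLH3 was at -0.27 in LN229 and -0.45 in LN229-R. The cause of these changes was not tested.

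Leaving out 1 library changed the sign of values in these ranges. For resistance in U87 they were MLH3 -0.037 to 0.31, MSH6 -0.084 to 0.002 and PMS2 -0.29 to 0.022, and in LN229 EXO1 -0.016 to 0.54 and PMS1 -0.093 to 0.02. For STM2457 they were MLH3 -0.033 to 0.295 in U87 MG, MLH3 -0.009 to 0.26 and PMS1 -0.06 to 0.10 in U87-R, MLH3 -0.34 to 1.03 and PMS2 -0.027 to 0.068 in LN229, and MLH3 -0.44 to 0.24, MSH6 -0.01 to 0.26 and PMS2 -0.024 to 0.13 in LN229-R. For differences of effects they were MLH3 -0.15 to 0.20 and MSH3 -0.032 to 0.17 for U87-R minus U87 MG, EXO1 -0.25 to 0.69, MLH3 -1.11 to 0.26 and PMS2 -0.035 to 0.12 for LN229-R minus LN229, MLH3 -0.47 to 0.90 and MSH6 -0.09 to 0.037 for LN229 minus U87 MG, MLH3 -0.60 to 0.078 for LN229-R minus U87-R, and PMS2 -0.21 to 0.095 for resistance. With 3 libraries per group, depth in reads unknown and MLH3 near the filter in LN229, small differences were not detectable.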
